A study of Homo sapiens with 9 samples.

Results

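The peroxiredoxin, thioredoxin and glutathione redox genes comprised 10 genes, namely PRDX1, PRDX2, PRDX3, PRDX4, PRDX5, PRDX6, TXN, GSR, GPX1 and GLRX, and each was read through every array probe set assigned to that gene alone. This gave 17 probe sets for 9 of the genes, out of 41097 probe sets with 1 gene symbol that stand for 19775 genes. PRDX5 had no probe set assigned to it alone in the platform annotation used and was not analysed here. PRDX2 had 4 probe sets, PRDX3, PRDX6, TXN, GSR and GLRX had 2 each, and PRDX1, PRDX4 and GPX1 had 1 each. The probe set of a gene with the highest mean over all arrays is called its leading probe set, and all levels are log2 expression values after robust multi-array averaging (RMA).

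RNA came from U2OS, a human osteosarcoma line, in 3 groups of 3 arrays: cells carrying the plasmid shBAP1 #1, cells carrying the plasmid shBAP1 #2, and cells carrying the non-targeting plasmid shControl. Both shBAP1 plasmids express hairpin RNAs for RNA interference against BAP1, a nuclear deubiquitinase and tumour suppressor, and the comparisons ask which transcripts depend on it. The cells of every group, controls included, were transfected by lipid, kept under puromycin and then arrested where G1 meets S phase with thymidine. Whether the 3 replicates of a group came from separate cultures is not in the labels, and the p-values therefore measure only how these arrays spread, which may be technical. The annotation assigns 0 probe sets to BAP1 alone. Probe sets with several symbols were not searched for it, and its knockdown was not checked here.

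Across the 9 arrays the median level lay between 5.40 and 5.45, and the median of all probe set means, 5.44, serves below as the mark for dim probe sets. Of the 8 mesenchymal and osteoblast markers set for U2OS, 7 were measured and 5 lay above that mark, VIM, SPARC, COL1A1, SPP1 and RUNX2, whereas COL1A2 and ALPL lay below it. None of the 4 measured blood and hepatocyte markers (PTPRC, CD3E, ALB and APOA1) reached the mark. The mean of the 7 mesenchymal and osteoblast markers was 8.97 to 9.14 in shBAP1 #1 arrays and 9.35 to 9.52 in shBAP1 #2 arrays, against 8.94 to 9.02 in shControl arrays. SPP1, which encodes the bone matrix protein osteopontin, averaged 6.78 with shBAP1 #1 and 11.26 with shBAP1 #2, against 9.32 with shControl. ALPL averaged 4.63 and 5.57, against 4.39. The other markers of this list were highest with shBAP1 #1. COL1A1 averaged 12.245 with shBAP1 #1 and 11.15 with shBAP1 #2, against 11.25 with shControl. RUNX2 averaged 7.99 and 6.82, against 6.79, and SPARC 12.97 and 12.63, against 12.62. VIM averaged 14.16 and 13.97, against 14.08, and COL1A2 4.63 and 4.50, against 4.45. The mean of the 3 epithelial markers was 4.94 to 5.03 in shBAP1 #1 arrays and 4.90 to 5.02 in shBAP1 #2 arrays, against 5.09 to 5.43 in shControl arrays, with EPCAM above the mark and CDH1 and KRT19 below it. Over probe sets, replicate 1 of shBAP1 #2 correlated more closely with the control arrays (mean r = 0.989) than its replicates 2 and 3 did (0.981). The level of the 3′ actin probe set minus that of the 5′ set, which reflects RNA integrity, was 0.39 to 0.41 in shBAP1 #1 and 0.39 to 0.46 in shBAP1 #2. In shControl it was 0.47 to 0.51, so it narrowly separated both hairpins from the controls. The same difference for GAPDH overlapped between all groups. It was -0.05 to -0.03 in shBAP1 #1 and -0.04 to -0.03 in shBAP1 #2, against -0.06 to -0.02 in shControl.

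Peroxiredoxins are peroxidases that reduce hydrogen peroxide with a reactive cysteine. Thioredoxin, the product of TXN, reduces cytosolic peroxiredoxins such as PRDX1 and PRDX2 again with electrons that thioredoxin reductase takes from NADPH. In the parallel glutathione branch, the GPX1 product reduces peroxide with glutathione, the GSR product (glutathione reductase) regenerates glutathione with NADPH, and the GLRX product (glutaredoxin) removes glutathione from protein thiols. PRDX3 works in mitochondria and PRDX4 in the endoplasmic reticulum, while PRDX1, PRDX2 and PRDX6 are mainly cytosolic. PRDX1, TXN and GSR are known targets of NRF2, a transcription factor of the antioxidant response.

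With shBAP1 #1, 6 of the 17 member probe sets were called against shControl, beside 21.8% of all probe sets (limma, adjusted p below 0.05 by Benjamini-Hochberg across 41097 probe sets). Of these, 3 were higher, beside 11% of all probe sets, and 3 lower, beside 10.8%. With shBAP1 #2, 9 were called, beside 28.9%, of which 6 were higher, beside 15.3%, and 3 lower, beside 13.5%. PRDX2 was lower and GPX1 and GLRX were higher with both hairpins. PRDX1 and PRDX3 were lower with shBAP1 #2, at under 50% of their shControl levels, and were not called with shBAP1 #1. GSR was lower with shBAP1 #1 and higher with shBAP1 #2. The median absolute change of the 17 members was 0.18 with shBAP1 #1 and 0.29 with shBAP1 #2. All probe sets had a median absolute change of 0.12 and 0.14, and those at or above the mark for dim probe sets, where 16 of the 17 members lie, 0.19 and 0.24. The shares of probe sets called or not overlapping, here and below, include the dim ones. None was taken over the brighter sets alone.

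**Figure D1:**
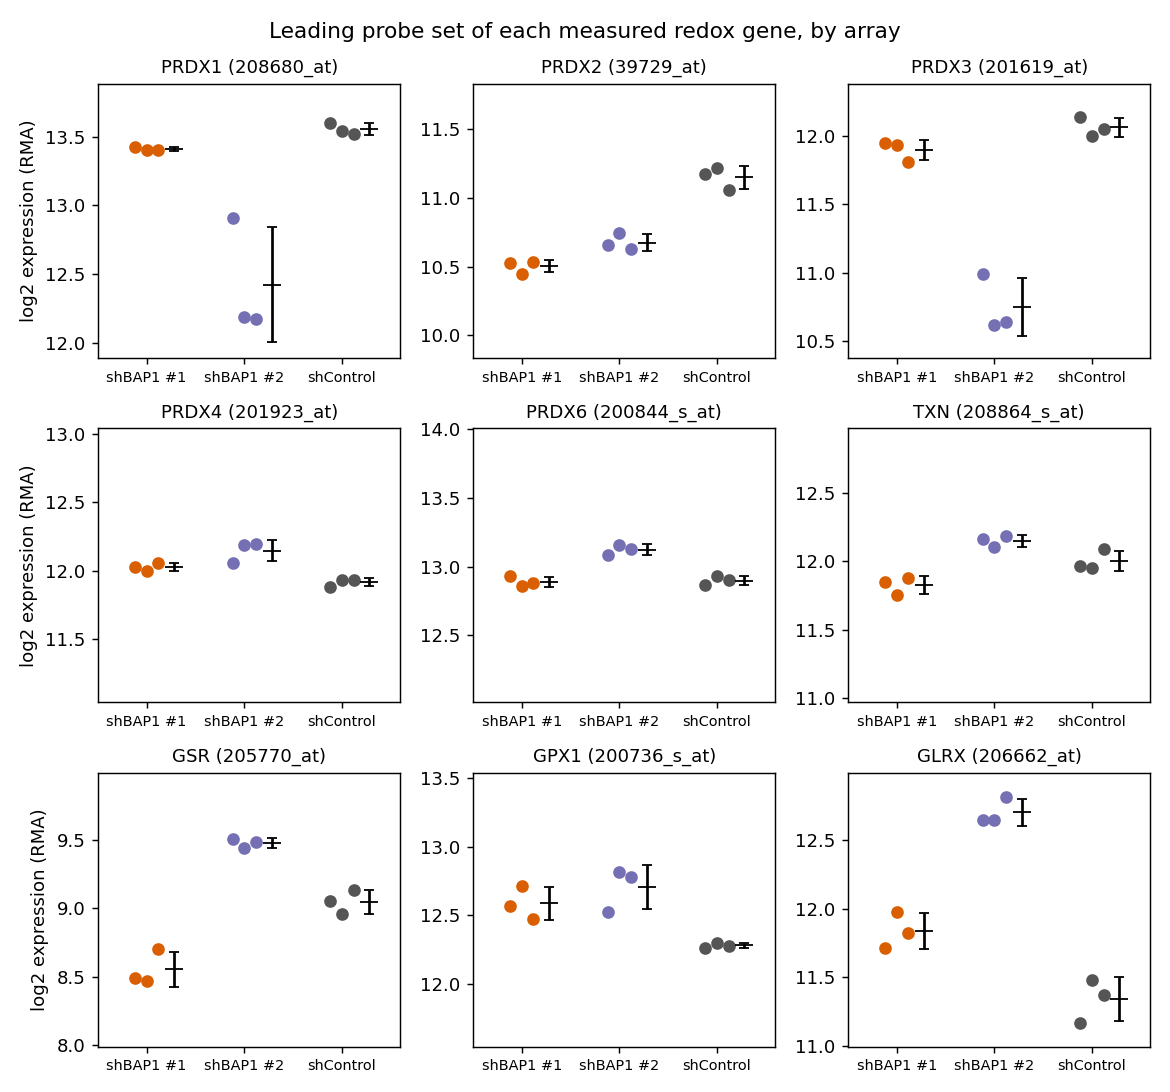
Log2 expression (RMA) of the leading probe set of the 9 measured redox genes in each of the 9 arrays, with shBAP1 #1, shBAP1 #2 and shControl from left to right. Points are arrays, the bar beside them is the group mean with its SD (n = 3), and each vertical axis spans the same number of log2 units. PRDX1 and PRDX3 are lowest in the shBAP1 #2 arrays, GLRX is highest in shBAP1 #2 and lowest in shControl, and GSR lies on opposite sides of shControl with the 2 hairpins.

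The promoters of the members with the largest fall and rise, PRDX3 and GLRX, and of PRDX2, which fell with both hairpins, are shown to set beside their values. The sequences are from RefSeq on build GRCh38.p14, run from 250 bases before the annotated start to 50 after it, and were taken for 7 of the 10 genes. They were searched on both strands for the core of the antioxidant response element bound by NRF2 (TGACNNNGC, where N is any base) and for a motif of YY1 (ATGGCGG), a factor known to bind BAP1. The motifs do not overlap, and capitals mark a match. Both motifs were chosen after earlier results of these data were known.
PRDX3, chr10:119178763-119179062, minus strand: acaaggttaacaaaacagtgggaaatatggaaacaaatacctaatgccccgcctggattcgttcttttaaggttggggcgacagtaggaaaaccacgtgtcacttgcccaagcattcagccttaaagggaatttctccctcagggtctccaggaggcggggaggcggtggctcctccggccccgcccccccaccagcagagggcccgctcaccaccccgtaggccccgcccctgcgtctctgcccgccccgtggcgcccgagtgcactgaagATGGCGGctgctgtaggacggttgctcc
PRDX2, chr19:12801751-12802050, minus strand: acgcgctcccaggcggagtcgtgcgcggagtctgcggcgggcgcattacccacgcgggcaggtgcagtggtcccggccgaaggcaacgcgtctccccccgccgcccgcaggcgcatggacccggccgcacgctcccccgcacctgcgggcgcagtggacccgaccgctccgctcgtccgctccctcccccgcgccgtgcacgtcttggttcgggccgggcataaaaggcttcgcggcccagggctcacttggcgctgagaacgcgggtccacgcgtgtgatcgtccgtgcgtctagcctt
GLRX, chr5:95822677-95822976, minus strand: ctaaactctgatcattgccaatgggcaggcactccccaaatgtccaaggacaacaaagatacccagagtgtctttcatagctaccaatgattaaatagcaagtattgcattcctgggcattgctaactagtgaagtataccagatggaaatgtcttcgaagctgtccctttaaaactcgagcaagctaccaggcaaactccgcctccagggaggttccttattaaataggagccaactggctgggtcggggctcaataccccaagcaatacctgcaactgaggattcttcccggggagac

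The YY1 letters lay in the PRDX3 promoter, from base 23 to base 29 after the start, and 5.55% of all 35116 promoters of the same length hold them. These letters begin with ATG, as a start codon does, and whether this stretch of PRDX3 is coding was not checked. They were found in no other promoter of the searched members (PRDX2, PRDX4, PRDX5, TXN, GPX1 and GLRX). The antioxidant element letters lay in none of these 7 genes' promoters and in 13.3% of all promoters. PRDX1, PRDX6 and GSR were not searched, GSR because its promoter was left out beforehand. Of the NRF2 targets PRDX1, TXN and GSR, only TXN was therefore searched. A match describes letters only, and the absence of one says nothing about the factor.

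Among the cytosolic peroxiredoxins, PRDX1 (208680_at) was lower with shBAP1 #2. Its level was 12.91, 12.19 and 12.17 in the 3 shBAP1 #2 arrays, against 13.60, 13.54 and 13.52 in the shControl arrays. Every shBAP1 #2 array lay below every control, with replicate 1 nearest to them. The change was -1.13 log2 units ± 0.16 (SE, n = 3 per group), which is 45.6% of the shControl level (adjusted p = 0.000376), and -1.37 without shBAP1 #2 replicate 1. In shBAP1 #1 arrays PRDX1 stood at 13.43, 13.41 and 13.40, also below every control, at a change of -0.14 that was not called (95% confidence interval -0.50 to 0.21, adjusted p = 0.635). The SE comes from a spread shared by the 3 groups, and the SD of PRDX1 was 0.01 in shBAP1 #1, 0.42 in shBAP1 #2 and 0.04 in shControl. The difference between the hairpins was itself called, at -0.99 for shBAP1 #2 minus shBAP1 #1 (adjusted p = 0.000749).

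PRDX3, the mitochondrial peroxiredoxin, showed the same order of groups. Its leading probe set 201619_at read 10.995, 10.62 and 10.64 with shBAP1 #2, against 12.14, 11.999 and 12.05 with shControl. The groups did not overlap, and replicate 1 of shBAP1 #2 was again nearest to the controls. The change was -1.31 ± 0.10 (SE, adjusted p = 1.18e-05), 40.4% of the shControl level, and -1.43 without that array. With shBAP1 #1 the 3 arrays read 11.95, 11.94 and 11.81, below every control by a mean of -0.17 that was not called (95% confidence interval -0.39 to 0.06, adjusted p = 0.323). The hairpins differed by -1.14 for shBAP1 #2 minus shBAP1 #1 (adjusted p = 1.47e-05). The other PRDX3 probe set, 209766_at, was not called, at -0.11 with shBAP1 #2 (95% confidence interval -0.26 to 0.04). It was far dimmer, at a mean of 6.45 over the arrays, and the mean of both probe sets gave -0.71 for PRDX3 with shBAP1 #2 (adjusted p = 4.33e-05).

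PRDX2, a cytosolic peroxiredoxin abundant in red blood cells, was the only measured peroxiredoxin called the same way with both hairpins. Its leading probe set 39729_at read 10.53, 10.45 and 10.53 with shBAP1 #1 and 10.66, 10.74 and 10.63 with shBAP1 #2, against 11.17, 11.22 and 11.06 with shControl. All 6 shBAP1 arrays lay below all 3 controls. The changes were -0.65 with shBAP1 #1 (adjusted p = 9.07e-05) and -0.48 with shBAP1 #2 (adjusted p = 0.000467), with an SE of 0.07 each. The difference between the hairpins, 0.17 for shBAP1 #2 minus shBAP1 #1, was not called (95% confidence interval 0.02 to 0.33, adjusted p = 0.0926).

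None of the 3 other PRDX2 probe sets was called, and their values were negative with both hairpins. 211658_at gave -0.28 and -0.23 (adjusted p = 0.063 and 0.106 for shBAP1 #1 and shBAP1 #2), and its shControl arrays, at 8.75 to 9.12, overlapped both hairpins. 215067_x_at gave -0.03 and -0.15, and 201006_at, which lies below the mark for dim probe sets at a mean of 5.04, by -0.08 and -0.14. The mean of all 4 probe sets gave PRDX2 changes of -0.26 and -0.25 (adjusted p = 0.0471 and 0.0461), so the call was kept at a smaller size. The actin difference given above separates the same groups as PRDX2, GPX1 and GLRX do, as does the mean of the epithelial markers. The GAPDH difference does not. The part of the actin difference and of the epithelial markers in these results was not tested.

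PRDX4, the peroxiredoxin of the endoplasmic reticulum, was slightly higher with shBAP1 #2. Its only probe set, 201923_at, read 12.06, 12.19 and 12.20 with shBAP1 #2, against 11.89, 11.94 and 11.94 with shControl. The groups did not overlap, and the change was 0.23 ± 0.07 (SE, adjusted p = 0.0222). The call was lost in 3 of 9 fits without 1 array, namely shControl replicate 1, shBAP1 #2 replicate 2 or shBAP1 #2 replicate 3, at adjusted p up to 0.0777. With shBAP1 #1 PRDX4 read 12.03, 12.001 and 12.06, above every control by a mean of 0.11 that was not called (adjusted p = 0.306).

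PRDX6, which unlike the other peroxiredoxins uses glutathione rather than thioredoxin as its reductant and also has phospholipase activity, gave different answers by probe set. The leading 200844_s_at read 13.09, 13.16 and 13.13 with shBAP1 #2, against 12.86, 12.93 and 12.90 with shControl. It was higher by 0.23 ± 0.06 (SE, adjusted p = 0.0171). The other set, 200845_s_at, read 11.41, 11.25 and 11.37 with shBAP1 #2, against 11.54, 11.48 and 11.47 with shControl, at a difference of -0.15 that was not called (adjusted p = 0.127). Both sets thus separated the groups, in opposite directions, and shBAP1 #2 minus shBAP1 #1 was called for both, at 0.23 (adjusted p = 0.0137) and -0.20 (adjusted p = 0.0416). The call at -0.20 was lost in 11 of 16 alternative settings, among them the replicate block and 8 of 9 fits without 1 array. The rise of the leading set against shControl was lost without shControl replicate 1 or shBAP1 #2 replicate 2. Their mean gave 0.04 with shBAP1 #2 (adjusted p = 0.616), so no direction can be given for PRDX6 as a gene. The suffix of both sets marks probes that can match several transcripts. With shBAP1 #1 neither set was called, at changes of -0.01 and 0.05.

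**Figure D2:**
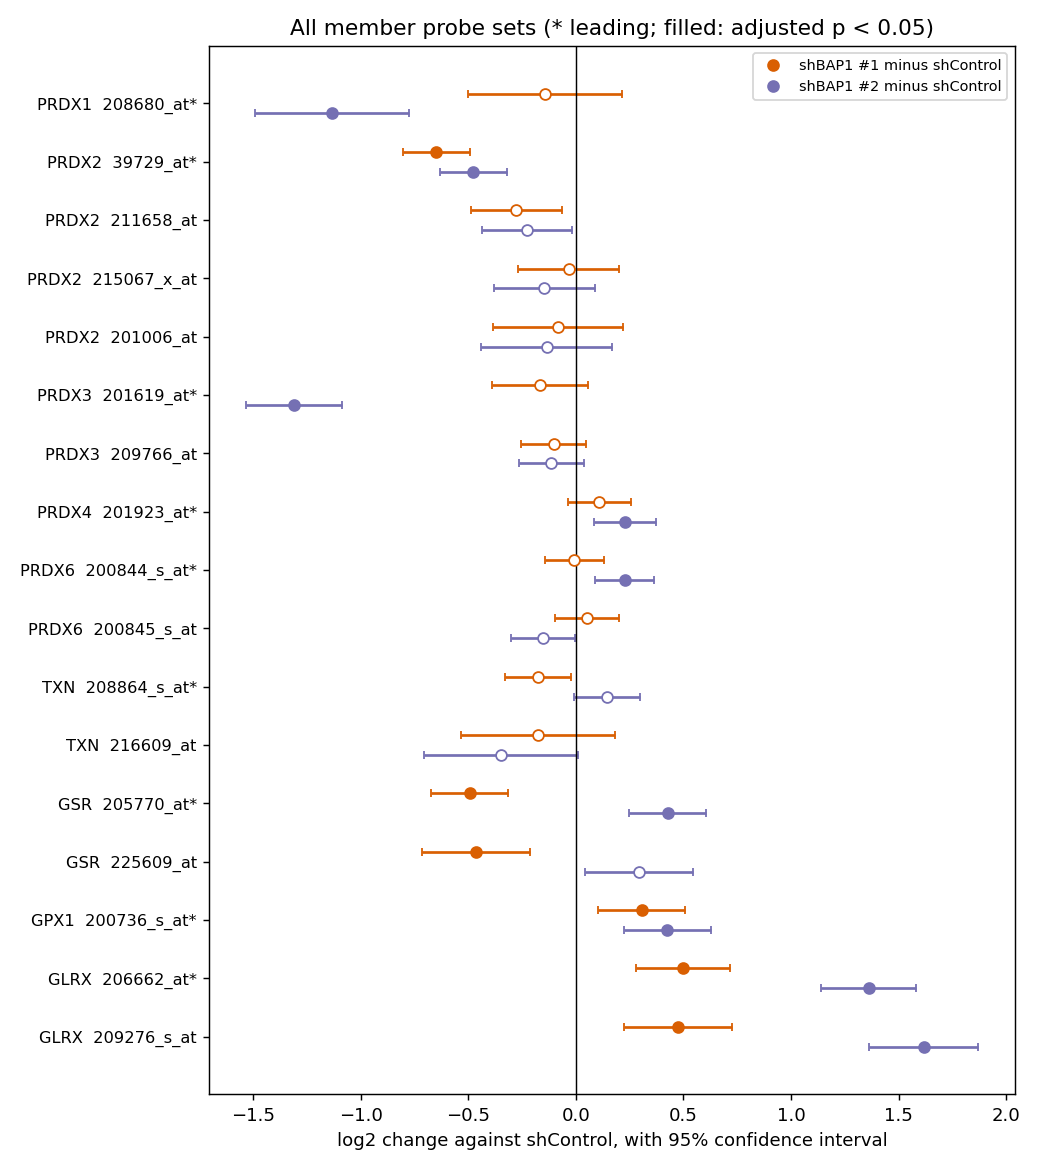
Log2 change against shControl of all 17 member probe sets (horizontal axis) with shBAP1 #1 (upper point of each pair) and shBAP1 #2 (lower point), with 95% confidence intervals from limma. Filled points passed an adjusted p of 0.05 and asterisks mark leading probe sets. The widest separation between the hairpins is seen for PRDX1, PRDX3, GSR and GLRX.

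TXN, the gene of thioredoxin, was not called against shControl with either hairpin. The leading 208864_s_at read 11.85, 11.76 and 11.88 with shBAP1 #1 and 12.16, 12.10 and 12.19 with shBAP1 #2, against 11.97, 11.95 and 12.09 with shControl. The 3 groups did not overlap, with shBAP1 #1 lowest and shBAP1 #2 highest. Against shControl the changes were -0.18 (95% confidence interval -0.33 to -0.02, adjusted p = 0.102) and 0.15 (-0.01 to 0.30, adjusted p = 0.153). Between the hairpins the difference of 0.32 for shBAP1 #2 minus shBAP1 #1 was called (adjusted p = 0.00423). The second set, 216609_at, gave -0.18 with shBAP1 #1 and -0.35 with shBAP1 #2 against shControl, neither called (adjusted p = 0.545 and 0.147). Its shBAP1 #2 arrays lay below every control, opposite to the leading set. Replicate 1 read 6.88 and replicates 2 and 3 read 7.57 each, against 7.63 to 7.73 in shControl. Between the hairpins the second set gave -0.17 (adjusted p = 0.502). With the mean of both sets the difference was 0.08 (adjusted p = 0.598).

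GSR, glutathione reductase, moved in opposite directions with the 2 hairpins, the only member called that way. The leading 205770_at read 8.49, 8.47 and 8.70 with shBAP1 #1, against 9.06, 8.96 and 9.13 with shControl. In shBAP1 #2 arrays it read 9.51, 9.44 and 9.48, above every control. The changes were -0.49 ± 0.08 with shBAP1 #1 (SE, adjusted p = 0.00126) and 0.43 ± 0.08 with shBAP1 #2 (adjusted p = 0.00223). A call in opposite directions was made for 2.9% of all probe sets. The 2 comparisons share the shControl arrays, so the direct difference between hairpins is given too: it was 0.92 for shBAP1 #2 minus shBAP1 #1 (adjusted p = 1.42e-05), a fold of 1.89. SPP1 among the osteoblast markers has the same order of groups as GSR, whereas COL1A1, COL1A2, RUNX2, SPARC and VIM were highest with shBAP1 #1. The marker mean sets shBAP1 #2 apart as PRDX1 and PRDX3 do, but only SPP1 and ALPL of its markers were highest there. The part of these markers in the results was not tested.

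The second GSR set, 225609_at, followed the first. It read 7.59, 7.68 and 7.996 with shBAP1 #1 and 8.50, 8.48 and 8.56 with shBAP1 #2, against 8.23, 8.05 and 8.38 with shControl. It was lower by -0.46 with shBAP1 #1 (adjusted p = 0.0127), and its 0.29 with shBAP1 #2 was not called (adjusted p = 0.0788). The shBAP1 #1 call was lost without shControl replicate 3, shBAP1 #1 replicate 1 or shBAP1 #1 replicate 2, at adjusted p up to 0.0582. For the difference between the hairpins this set gave 0.76 (adjusted p = 0.000421).

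GPX1, the selenium-containing peroxidase that consumes glutathione, was higher with both hairpins. Its only probe set, 200736_s_at, read 12.57, 12.71 and 12.48 with shBAP1 #1 and 12.52, 12.82 and 12.78 with shBAP1 #2, against 12.26, 12.30 and 12.28 with shControl. The suffix of this set marks probes that can match several transcripts, so GPX1 has no value where such sets are left out. All 6 shBAP1 arrays lay above all controls, while the hairpins overlapped each other. The changes were 0.31 (adjusted p = 0.0353) and 0.43 (adjusted p = 0.0048), with an SE of 0.09 each. The call with shBAP1 #1 was lost in 5 of 9 fits without 1 array, namely those without a shControl array (each of the 3 in turn) or without shBAP1 #1 replicate 1 or 2, at changes down to 0.24 and adjusted p up to 0.134. Between the hairpins the difference was 0.12 (95% confidence interval -0.08 to 0.32, adjusted p = 0.39).

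GLRX, glutaredoxin, had the largest rise of the members with both hairpins, seen in both of its probe sets. The leading 206662_at read 11.72, 11.98 and 11.83 with shBAP1 #1 and 12.65, 12.65 and 12.82 with shBAP1 #2, against 11.17, 11.48 and 11.37 with shControl. No array of any group overlapped another group, and shBAP1 #2 was highest. The changes were 0.50 ± 0.10 with shBAP1 #1 (SE, adjusted p = 0.00414) and 1.36 ± 0.10 with shBAP1 #2 (adjusted p = 8.87e-06), which are folds of 1.41 and 2.57. The hairpins differed by 0.86 for shBAP1 #2 minus shBAP1 #1 (adjusted p = 7.7e-05).

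The second GLRX set, 209276_s_at, read 11.39, 11.66 and 11.45 with shBAP1 #1 and 12.48, 12.73 and 12.71 with shBAP1 #2, against 10.81, 11.18 and 11.08 with shControl. It rose by 0.48 (adjusted p = 0.0115) and 1.62 (adjusted p = 7.24e-06). Without shBAP1 #1 replicate 2 its change with that hairpin was 0.37 and no longer called (adjusted p = 0.0507). In these bulk arrays a change in the share of cells with a transcript and a change in its amount per cell cannot be told apart. This holds for GLRX and for every other member.

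**Figure D3:**
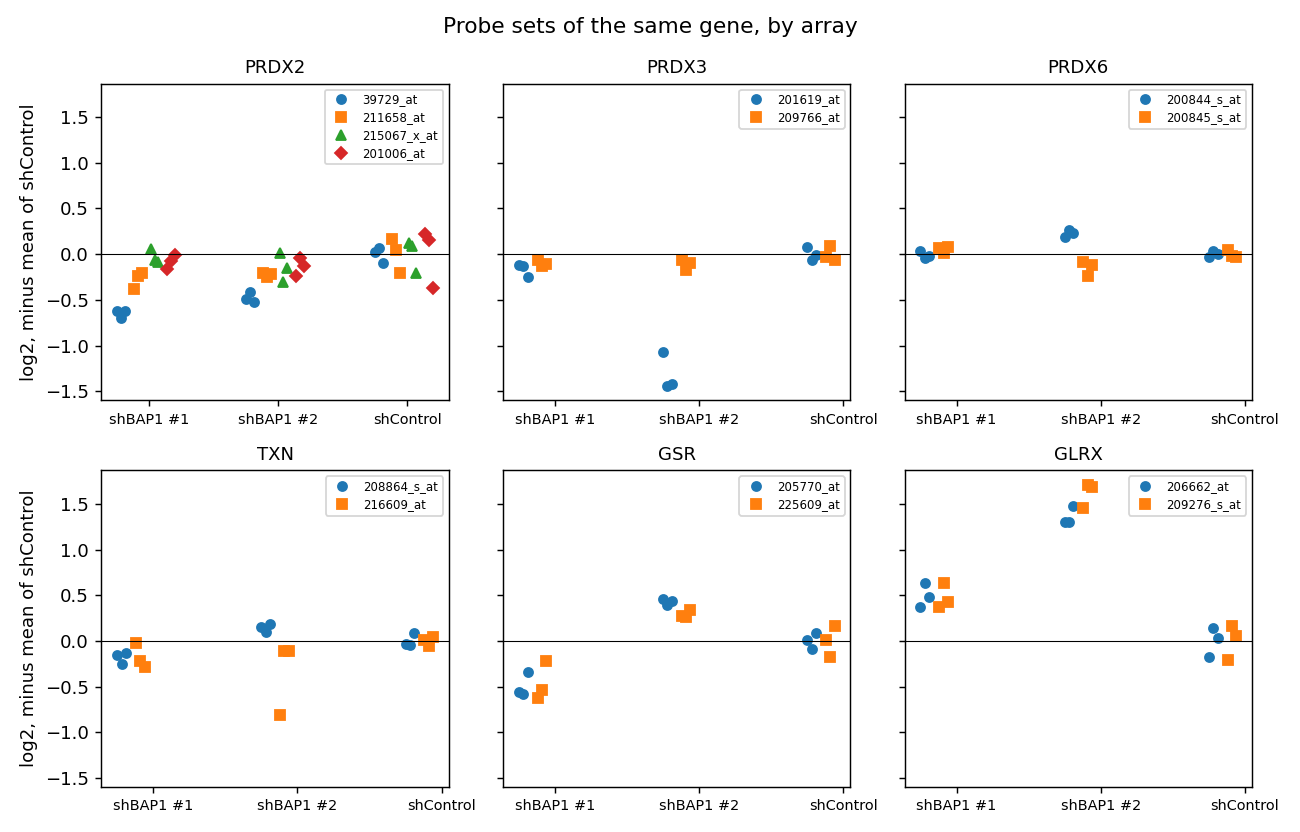
Log2 level of each probe set minus its own shControl mean (vertical axis) in the 9 arrays, for the 6 members with more than 1 probe set, with shBAP1 #1, shBAP1 #2 and shControl from left to right. The probe sets of GSR and of GLRX move together, those of PRDX6 part in the shBAP1 #2 arrays, and the falls of PRDX2 and PRDX3 are carried by their leading probe sets.

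Counted over all 17 member probe sets, 4 were called the same way with both hairpins, beside 9.47% of all probe sets. GPX1 and both GLRX sets were the 3 higher ones, beside 5.07%, and the leading PRDX2 set was the 1 lower one, beside 4.39%. Groups did not overlap for 10 of the 17 with shBAP1 #1, beside 35.1% of all probe sets, and for 13 with shBAP1 #2, beside 39.1%. Between the hairpins 9 of 17 were called, beside 30.3% of all probe sets, with 6 higher in shBAP1 #2, beside 15.6%, and 3 lower, beside 14.7%. The 9 were PRDX1, the leading PRDX3 set, both PRDX6 sets, the leading TXN set, both GSR sets and both GLRX sets. The median change over the members was -0.10 with shBAP1 #1 and -0.11 with shBAP1 #2, against 0.01 and 0.02 over all probe sets. Over the 9 leading sets it was -0.14 and 0.23, so its sign with shBAP1 #2 depends on which probe sets are counted.

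The genes whose leading probe set ran most like a member over the 9 arrays were ranked by Pearson's r among 12747 genes at or above the mark for dim probe sets. PRDX1 ran most like BICRAL (r = 0.998) and FAM217B (0.996), PRDX3 like ARAP3 (0.997) and ILRUN (0.994), and PRDX2 like EEF1A2 (0.994) and MRPS16 (0.985). GLRX ran most like MVP (0.991) and CORO2B (0.99), GSR like HDGFL3 (0.995) and NPTN (0.992), and GPX1 like CCNG1 (0.988). These coefficients describe 9 arrays that fall into 3 groups, and all were normalised together. CORO2B stood 1.00 and 2.26 above shControl with shBAP1 #1 and shBAP1 #2, and ARAP3 gave -0.14 and -1.03.

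The other genes of the pathway were 45 measured redox genes taken from lists. They have 93 probe sets, of which 40 were called with shBAP1 #1, 47 with shBAP1 #2 and 57 between the hairpins, beside 21.8%, 28.9% and 30.3% of all probe sets. By leading probe set, 9 of the 45 were higher and 14 lower with shBAP1 #1, beside 24.5% of all leading probe sets called. With shBAP1 #2, 20 were higher and 7 lower, beside 32.3% of all leading sets. Changes called in opposite directions were found for 8 of the 45, beside 3.25% of all leading probe sets, and the same direction for 6, beside 11%. Some of these genes lie in the NRF2 group as well, and PRDX1, TXN and GSR are NRF2 targets among the members.

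In the thioredoxin system, SRXN1, which encodes sulfiredoxin, the enzyme that repairs overoxidised peroxiredoxins, was higher by 1.24 with shBAP1 #2 (adjusted p = 2.3e-06). With shBAP1 #1 its value was -0.03 (adjusted p = 0.85). TXNIP, which binds thioredoxin and inhibits it, rose by 0.88 with shBAP1 #1 (adjusted p = 0.00905) and fell by 1.23 with shBAP1 #2 (adjusted p = 0.00088). SESN2, a sestrin of the stress response, rose by 0.85 and 0.58 with shBAP1 #1 and shBAP1 #2, and its relative SESN1 rose by 0.72 with shBAP1 #2 and stood 0.22 above shControl with shBAP1 #1, which was not called. In all, 3 of 9 rose with shBAP1 #1 and 0 fell, and 5 rose and 2 fell with shBAP1 #2. These and the following list counts are over leading probe sets, of which 24.5% and 32.3% were called in the whole table, and lists this short cannot be read closely against them.

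For glutathione synthesis and its cystine supply, 2 of 5 fell with shBAP1 #1 and 0 rose, and 2 of 5 rose with shBAP1 #2 and 0 fell. SLC7A11, the cystine transporter, was lower by -0.76 with shBAP1 #1 (adjusted p = 0.0116) and higher by 0.54 with shBAP1 #2 (adjusted p = 0.0498). The call with shBAP1 #2 was lost in 12 of 19 alternative settings, and that with shBAP1 #1 without its replicate 1. The other SLC7A11 sets were not called with shBAP1 #2, at -0.09 for 207528_s_at (adjusted p = 0.716) and 0.48 for 217678_at (adjusted p = 0.127). GCLM and GCLC encode the regulatory and catalytic subunits of the enzyme that limits glutathione synthesis. The leading GCLM set fell by 0.64 with shBAP1 #1 and stood at 0.21 with shBAP1 #2 (adjusted p = 0.066). The dimmer GCLM sets 234986_at and 236140_at fell by 1.22 and 1.15 with shBAP1 #1 and rose by 1.08 and 0.90 with shBAP1 #2, all called. The leading GCLC set stood at -0.16 with shBAP1 #1 (adjusted p = 0.116) and rose by 0.45 with shBAP1 #2, while 202922_at fell by 0.44 with shBAP1 #1 (adjusted p = 0.00211) and rose by 0.77 with shBAP1 #2. The GCLC set below the mark for dim probe sets was called with neither hairpin.

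Among relatives of GLRX and GPX1 the directions differed. GLRX3, a glutaredoxin of iron-sulfur handling, changed by -0.21 and 0.66 with shBAP1 #1 and shBAP1 #2, and the mitochondrial GLRX5 by 0.30 and -0.29, all called. The GLRX3 call with shBAP1 #1 was lost in 8 of 18 alternative settings, among them the replicate block, 6 of 9 fits without 1 array and the mean of its probe sets, which gave -0.03 (adjusted p = 0.78). With shBAP1 #1 the GLRX3 set 214205_x_at was also lower, at -0.33 (adjusted p = 0.00838). The dimmer GLRX3 sets 207506_at and 230095_at gave 0.30 and 0.12 there and were not called. By leading set, 3 of 5 other glutathione peroxidases fell with shBAP1 #1, namely GPX3 (-0.64), GPX7 (-0.71) and GPX8 (-0.47), and 1 was called with shBAP1 #2, GPX8 (-0.57). The second GPX8 set, 228141_at, was not called with shBAP1 #2 (0.17, adjusted p = 0.453), and the mean of both gave -0.20 (adjusted p = 0.27). The call of the leading GPX8 set with shBAP1 #1 was lost in 4 of 9 fits without 1 array. The second GPX3 set, 201348_at, was higher with shBAP1 #2 by 0.33 (adjusted p = 0.0113), where the leading set gave 0.27 (adjusted p = 0.0634). GPX7 lay near the mark for dim probe sets, at 5.15 with shBAP1 #1 against 5.86 with shControl. In the sets for superoxide and peroxide removal, CAT (catalase) rose by 0.49 and 0.47. Its set 211922_s_at rose by 0.37 with shBAP1 #1 (adjusted p = 0.0251). The mean of its probe sets, which include 215573_at below the mark for dim probe sets, was not called with shBAP1 #1 (0.23, adjusted p = 0.0582). SOD1 gave 0.03 (adjusted p = 0.817) and 0.22 (adjusted p = 0.028), this call being lost in 5 of 19 alternative settings. SOD2 gave -0.72 (adjusted p = 0.00114) and -0.32 (adjusted p = 0.0666).

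Among 7 measured enzymes of NADPH supply, on which GSR and thioredoxin reductase depend, 1 rose and 2 fell with shBAP1 #1, and 1 rose and 3 fell with shBAP1 #2. ME1, the cytosolic malic enzyme, changed by -0.64 and 0.45, and IDH2, the mitochondrial NADP-dependent isocitrate dehydrogenase, gave 0.11 (adjusted p = 0.705) and -0.84 (adjusted p = 0.00186). Of 8 glutathione transferases 2 rose and 2 fell with shBAP1 #1, and 6 rose and 0 fell with shBAP1 #2. MGST3 rose by 0.53 and 0.88, although the mean of its probe sets gave 0.18 (adjusted p = 0.148) and 0.29, and GSTM3 changed by -0.54 and 0.32. NFE2L2, the gene of NRF2 itself, fell by 0.81 with shBAP1 #1 (adjusted p = 6.33e-05) and stood at 0.24 with shBAP1 #2 (adjusted p = 0.0524), a call gained in 4 alternative settings. Its dimmer set 1567013_at fell by 0.40 with shBAP1 #1 (adjusted p = 0.0108) and rose by 0.29 with shBAP1 #2 (adjusted p = 0.0392). Its target NQO1 changed by -0.78 and 0.41, both called, while HMOX1 rose by 0.48 and 0.72, with the call for shBAP1 #1 lost in 3 of 9 fits without 1 array.

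**Figure D4:**
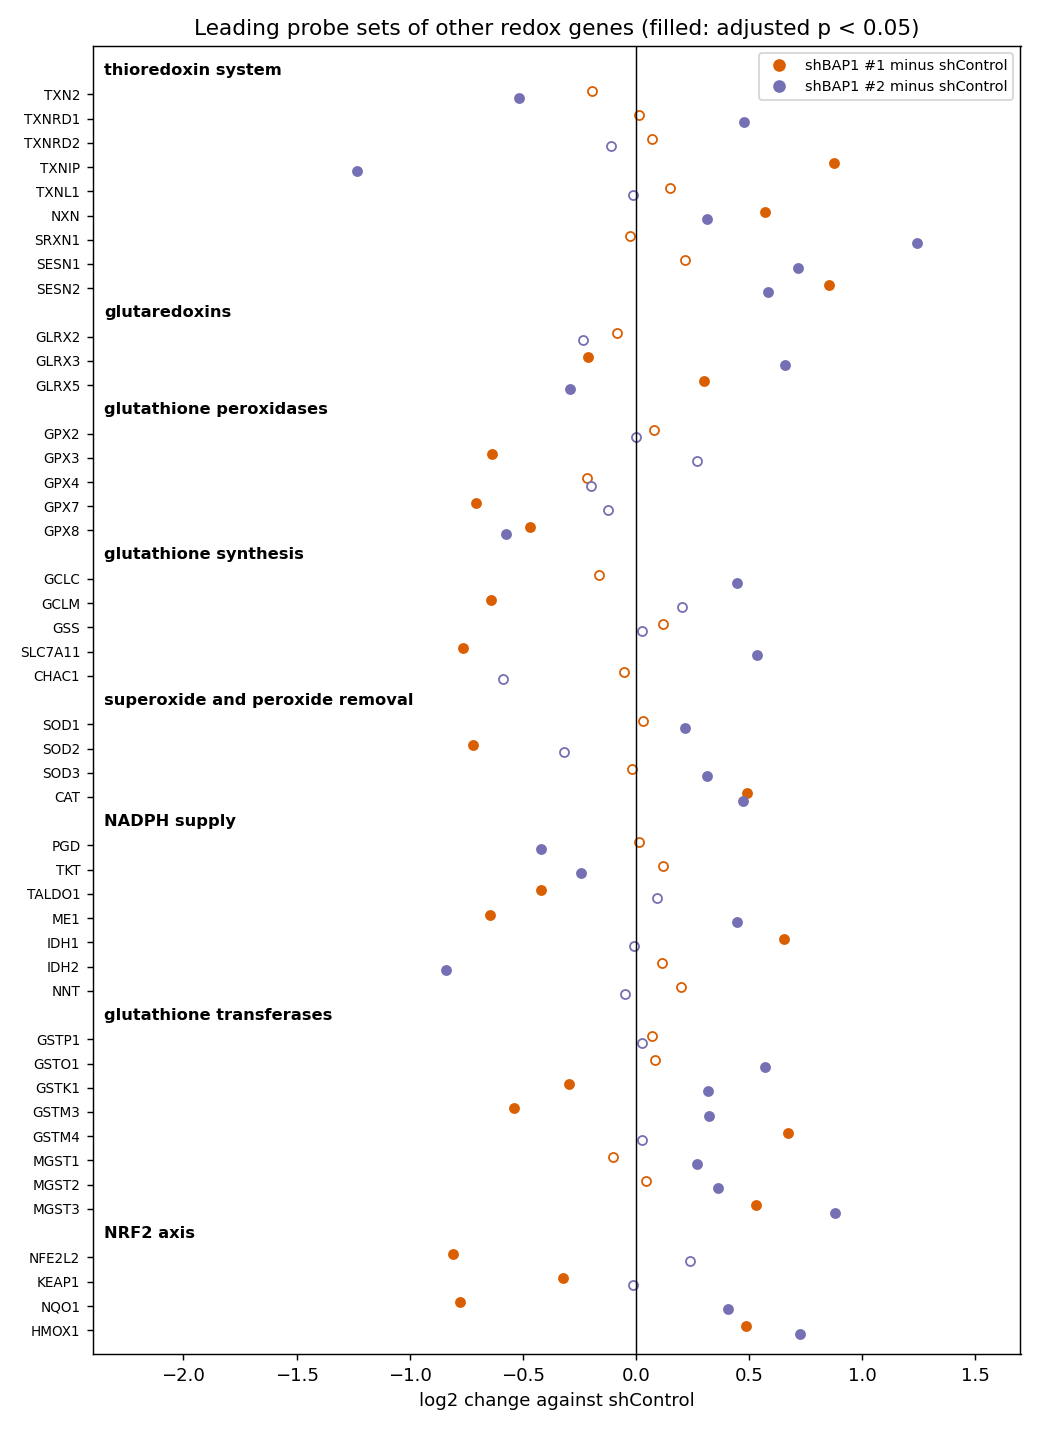
Log2 change against shControl (horizontal axis) of the leading probe set of 45 other redox genes, grouped by list, with shBAP1 #1 (upper point of each pair) and shBAP1 #2 (lower point). Filled points passed an adjusted p of 0.05. SRXN1 has the largest rise with shBAP1 #2, and TXNIP, SLC7A11, ME1, GSTM3 and NQO1 are called on opposite sides of zero, SLC7A11 with shBAP1 #2 only just (adjusted p = 0.0498).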

How the data were processed

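The deposited table gives log2 expression values for 54675 probe sets on 9 arrays, made with RMA per the submitters' processing notes, which name no version. RMA subtracts background, equalises the arrays' distributions and summarises probes, so a shift shared by all transcripts cannot be seen and folds of weakly detected probe sets come out too small. No 2 arrays held identical values, and with so few arrays precision is limited.

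In the platform annotation 41097 probe sets carried 1 gene symbol and 1801 several, and 11777 had no entry. The 41097 were fitted as 3 groups, without covariates, using lmFit and eBayes of limma 3.58.1 (R 4.3.3), with 6 residual and 4.56 prior degrees of freedom. Tests were two-sided, and no fold minimum or filter on level was set. The fit was tested on simulated data. Promoters were searched in Python 3.11.15.

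The members, gene lists and motifs were chosen with earlier results of these data known. Of the other redox genes, up to 4 called ones per list with the largest changes could be named. The 2 genes with the highest r were taken for each member called against shControl. Alternatives were the probe sets tested, dim and shared probe sets left out, cyclic loess, median centring, another variance model, the groups fitted, a replicate block and leaving out each array.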

Additional observations from a re-analysis of the deposited data

Results flagged for a closer look

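Changes called in opposite directions against shControl, with the direct difference between the hairpins called as well, were found for 1 member and 7 of the other redox genes named above. As shBAP1 #2 minus shBAP1 #1 in log2 units, the difference was 0.92 for GSR, 0.87 for GLRX3, 1.3 for SLC7A11, 1.09 for ME1, 0.86 for GSTM3 and 1.18 for NQO1. It was negative for TXNIP, at -2.11, and for GLRX5, at -0.59. Adjusted p of these differences lay between 4.1e-06 for ME1 and 0.000288 for SLC7A11 (limma). The opposite calls are weak for SLC7A11, whose call with shBAP1 #2 was lost in 12 of 19 alternative settings. They are also weak for the leading GLRX3 set, whose call with shBAP1 #1 was lost in 8 of 18. Each difference is fitted from 3 arrays per group. BAP1 itself was not analysed here, so how far each hairpin lowered it is not known from these values.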

How the results depend on the processing

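Of 834 changes of member probe sets recomputed over 19 alternative settings, 787 kept their direction and side of the threshold, 28 lost a call, 10 gained one and 9 turned direction. For the other redox genes named, 847 of 902 kept both, 36 lost a call, 16 gained one and 3 turned. No value that was called turned direction in either set. The uncalled ones that turned were PRDX6 (leading set, shBAP1 #1), at 0.0222 with the mean of all probe sets, 0.0082 with cyclic loess and -0.0272 to 0.00887 without 1 array, and TXN (leading set, shBAP1 #2), at -0.101 with the mean of all probe sets. Without 1 array, the second TXN set ran from -0.287 to 0.0614 between the hairpins. With shBAP1 #1, PRDX2 ran from -0.135 to 0.0293 in the set 215067_x_at and from -0.27 to 0.0293 in 201006_at, SRXN1 from -0.0698 to 0.0132, SOD1 from -0.00958 to 0.0622 and IDH2 from -0.0335 to 0.234.

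Without 1 array, the number of members called ran from 3 to 6 with shBAP1 #1, from 7 to 12 with shBAP1 #2, from 8 to 9 between the hairpins and from 2 to 4 the same way with both. Leaving out shBAP1 #1 replicate 2 gave the 3 with shBAP1 #1 and the 2 with both. For the 93 other redox probe sets the ranges were 32 to 43, 38 to 47 and 51 to 58. Fewer probe sets are counted by construction with 1 per gene, where 23, 28 and 33 of 45 other redox genes were called with shBAP1 #1, shBAP1 #2 and between them. The mean of all probe sets gave 22, 26 and 31 for these, and 4 of 9 members between the hairpins. Leaving out probe sets with shared probes gave 20, 19 and 26 of 56 other redox sets, and 5 of 11 members between the hairpins with 2 called the same way by both. With the replicate number as a block, 6, 10 and 8 members and 40, 48 and 57 other redox sets were called. Deviations of the 9 same-numbered pairs correlated at r = -0.188 to 0.227, with 4 above 0.1, and 6 of 9 arrays correlated best with their own number, a hint of pairing from the data that the labels do not state. Since not every pair exceeded 0.1, the samples were treated as sharing only a number. Depth does not apply to arrays, and 1 of the 17 member sets lay below the median level, where a change is hard to see.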
